A study of Rattus norvegicus with 4 samples.

Results

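The genes described here are 48 regulators and targets of the cell division cycle. They were read in the liver of old rats of an obese strain that had or had not drunk thiamine (vitamin B1). They were taken by symbol: every array probe was used that the platform annotation assigns to a listed gene, and 2 further probes, of Ccnb2 and Rrm2, took their name from the RefSeq accession that the array reports give. Of the 48 genes, 46 had at least 1 named probe, out of 12461 named genes on the array, and together they had 67 probes; Ccne2 and Mcm3 lacked a named probe and are left aside. Their roles divide them into 14 genes of mitosis, 16 of DNA replication and the G1/S transition, 7 cyclins, kinases and pocket proteins of G1, 6 inhibitors of cyclin-dependent kinases, and 5 targets or regulators of p53 and stress.

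The thiamine group was 2 male Otsuka Long-Evans Tokushima Fatty (OLETF) rats given 0.2% thiamine (2 g/L) as drinking water for 51 weeks, starting at 4 weeks of age. The untreated group was 2 male OLETF rats of the same age whose water held 0% thiamine. All 4 rats shared the strain, an overeating rat line that becomes obese and diabetic, as well as standard chow, cages of 2 rats, an age of 55 weeks and a 16 h fast before the liver was taken. The study kept 8 rats per group, and 2 livers per group were hybridised, each alone, to a 1-colour CodeLink rat array. There was no lean strain among these arrays, so every value describes the liver of an aged rat of this strain.

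Each array held 33849 gene probes. The scanner software found 19075 and 20071 of them above background in the thiamine livers, and 18176 and 18392 in the untreated livers. Levels are given as normalised log2 intensity of a probe. A probe's level can be set against the same probe in another liver, but not against another probe. All 11 hepatocyte markers with a named probe were above background on all 4 arrays, among them Alb (serum albumin) and Cyp2e1 (a cytochrome P450 of alcohol and drug metabolism), with a summed linear intensity of 212193 and 230560 in the thiamine livers and 213744 and 207528 in the untreated livers. The spots shown for Alb and Cyp2e1 were flagged as saturated in every rat, so the hepatocyte sum can miss differences in them. The values are of whole liver, in which fewer cells of a type and less RNA per cell cannot be told apart.

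Cells pass through division in an ordered way. D-type cyclins with Cdk4 and Cdk6, then E-type cyclins with Cdk2, phosphorylate the retinoblastoma protein Rb1 and its relatives, which releases E2F factors and turns on the genes of DNA synthesis. Cyclins A and B with Cdk1 then drive mitosis, whose genes are switched together in G2 and held off in resting cells. The adult liver is largely quiescent and keeps its cells in a resting state from which they can return to division after injury. The protein p53 stands across this path: under stress it turns on Cdkn1a, which stops the kinases, and Mdm2, which marks p53 itself for degradation.

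The share of genes detected differed by role. All 5 p53 and stress genes and 5 of 7 G1 genes had a probe above background on all 4 arrays, but 3 of 14 mitotic genes and 5 of 14 replication genes with a named probe did, and 3 of 6 kinase inhibitors. As a share, this was 71.4% of the G1 genes, 50.0% of the inhibitors, 35.7% of the replication genes and 21.4% of the mitotic genes, beside 66.1% of all 12461 named genes. In all, 21 members (45.7% of 46) were above background throughout, 9 more in both rats of 1 group or more, 8 on some arrays without meeting that rule, and 8 on none. The number of members with a probe above background was 33 and 30 in the thiamine livers and 28 and 29 in the untreated livers. These counts were higher in both thiamine livers, as were those of all probes. Detection of a probe depends on the probe's own sequence and labelling as well as on its transcript, and the probe sequences were not used here.

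**Figure D1:**
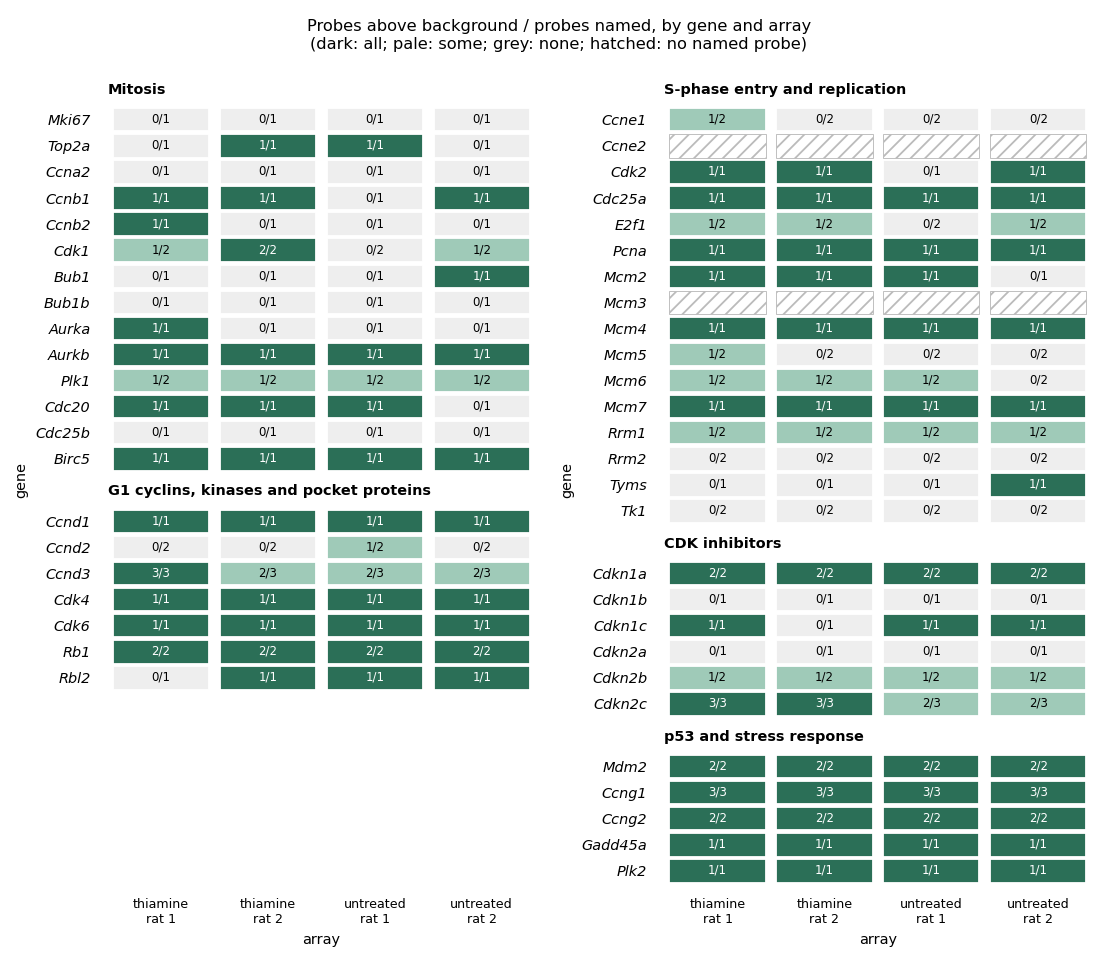
Number of probes above background out of the probes named, for each of the 48 genes (rows, by role) on the 4 arrays (columns, thiamine rats left and untreated rats right); dark cells mark all probes, pale cells some, grey cells none, and hatching a gene with no named probe. The p53 and stress genes had a probe above background in every rat, whereas 4 of the 14 mitotic genes were above background in none.

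The detection map shows these patterns gene by gene. The 8 members near background in every rat were Mki67, the Ki-67 antigen carried by dividing cells, Ccna2 (cyclin A2), the spindle checkpoint kinase Bub1b, the phosphatase Cdc25b, Rrm2, the small subunit of ribonucleotide reductase, Tk1 (thymidine kinase), and the inhibitors Cdkn1b (p27) and Cdkn2a. Probes above background on all 4 arrays were found for Plk1, Aurkb and Birc5 among the mitotic genes, and for Cdc25a, Pcna, Mcm4, Mcm7 and Rrm1 among the replication genes.

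No difference between thiamine and untreated livers passed the test for any of the 30 members that were above background in both rats of 1 group or more. limma with Benjamini-Hochberg adjustment over 18664 probes gave them adjusted p-values between 0.569 and 0.997. The same fit called 0.0% of 8985 genes, and its smallest adjusted p over all probes was 0.216; 1260 probes were under an unadjusted p of 0.05, 711 higher and 549 lower in the thiamine livers. At that unadjusted level stood 1 of the 30 members, Rb1, beside 6.89% of all genes in either direction and 3.83% higher as it was; none of the 30 stood there on the lower side, beside 3.06% of all genes. Of the 30, 20 were at a higher and 10 at a lower mean in the thiamine livers, against 50.6% of all genes at a higher mean. Their median log2 difference was 0.078, within a range of -0.52 to 0.61, and the median over all genes was 0.0035, with 5th and 95th percentiles of -0.37 and 0.42.

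Some of these members passed the filter on low values through 1 group alone. Of the 30 members, 7 were admitted by the thiamine arrays alone (Ccnb1, Cdk1, Cdc20, Cdk2, E2f1, Mcm2 and Mcm6) and 2 by the untreated arrays alone (Cdkn1c and Rbl2). Over the 21 members above background on all 4 arrays, 12 were higher and 9 lower in the thiamine livers, with a median log2 difference of 0.046. All 8217 genes whose shown probe was above background on all 4 arrays had a median of -0.0052, and 49.1% of them were higher. Groups that did not overlap were found in 8 of the 30 members, 7 higher in the thiamine livers (Ccnb1, E2f1, Pcna, Mcm2, Ccnd1, Rb1 and Mdm2) and 1 lower (Cdk6). Of the 7, Ccnb1, E2f1 and Mcm2 were admitted by the thiamine arrays alone, and among the 21 members above background on all 4 arrays the count was 4 higher and 1 lower. Over all genes 37.5% did not overlap, 18.5% higher and 19.0% lower. Rb1 was the member that was also at least 0.5 apart, as were 4.57% of all genes.

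**Figure D2:**
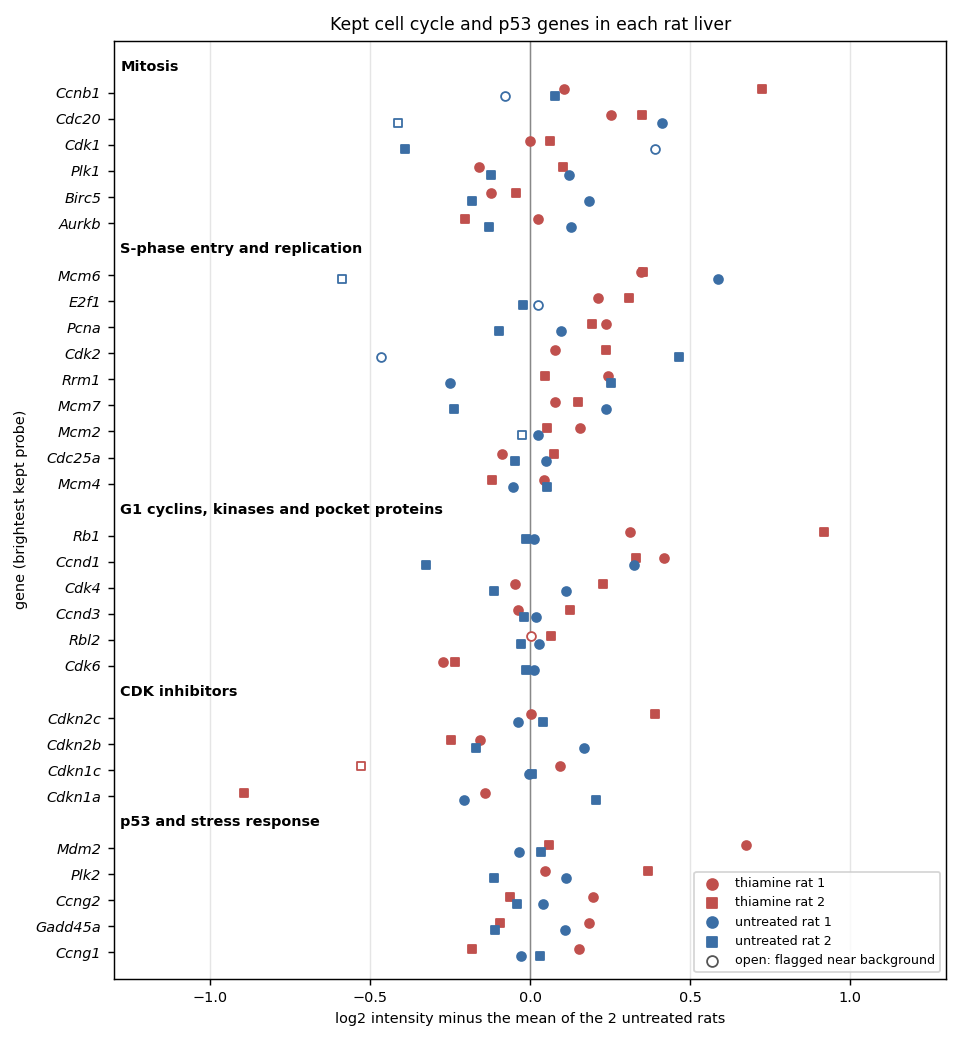
Level of each of the 30 members above background in both rats of 1 group or more, as log2 intensity minus the mean of the 2 untreated rats (horizontal axis), with thiamine rats in red and untreated rats in blue, rat 1 as a circle and rat 2 as a square, and open symbols for spots near background. Ccnb1, E2f1, Pcna, Mcm2, Ccnd1, Rb1 and Mdm2 sat higher in both thiamine rats, some of them only just, and Cdk6 lower in both. For the other members the groups overlap.

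The plot of each rat's level also shows which rat was lowest, a count that the filter can tilt where 1 group alone admitted a member. Among the 21 members above background on all 4 arrays, the lowest rat was thiamine rat 1 in 4, thiamine rat 2 in 6, untreated rat 1 in 3 and untreated rat 2 in 8 (38.1%). Untreated rat 2 was lowest in 24.9% of the 8217 genes above background on all 4 arrays. Among the 8 mitotic and replication members above background on all 4 arrays it was lowest in 3. Without untreated rat 2 the median difference over the 30 members was 0.011 in place of 0.078.

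The genes of mitosis showed no common direction. Of 14, 3 were above background on all 4 arrays and 6 could be compared, 3 at a higher and 3 at a lower mean in the thiamine livers, and the median log2 difference was 0.0015. Many such genes carry, near the transcription start, the element called CHR (cell cycle genes homology region, TTTGAA), through which a repressor complex holds them off in resting cells. The element was looked for, on both strands, in a promoter window of 250 bases before and 50 after the start from RefSeq (GRCr8), which 38 of the 48 members had. It stood in 8 of 12 mitotic promoters (66.7%: Plk1, Mki67, Bub1b, Cdc20, Ccnb2, Top2a, Birc5 and Cdk1), in 1 of 12 replication promoters (8.33%) and in 18.3% of all 33469 windows of that length. The promoters of Plk1 (chr1:186147408-186147707, + strand) and Birc5 (chr10:103571896-103572195, + strand), 2 mitotic genes that were above background in every rat, are shown because each holds the element close to its start, with its letters in capitals. It begins at position 7, counted from 1 at the start, in Plk1 and at position -8, before the start, in Birc5.
Plk1: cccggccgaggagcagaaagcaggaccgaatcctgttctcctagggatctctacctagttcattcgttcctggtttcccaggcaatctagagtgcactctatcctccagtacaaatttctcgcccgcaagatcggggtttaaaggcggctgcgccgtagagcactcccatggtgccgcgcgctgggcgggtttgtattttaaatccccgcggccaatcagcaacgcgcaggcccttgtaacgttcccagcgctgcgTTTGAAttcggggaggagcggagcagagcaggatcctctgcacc
Birc5: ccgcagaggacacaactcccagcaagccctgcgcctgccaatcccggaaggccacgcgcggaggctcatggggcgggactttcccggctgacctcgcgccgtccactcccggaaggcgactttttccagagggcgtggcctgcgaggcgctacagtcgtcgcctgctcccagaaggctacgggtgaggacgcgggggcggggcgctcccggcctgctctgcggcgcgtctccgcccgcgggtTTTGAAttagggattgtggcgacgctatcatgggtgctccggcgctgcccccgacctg

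A match to these letters is a description of the sequence and was not tested for binding. Of the 8 mitotic genes with a CHR match, 2 were above background on all 4 arrays and 4 could be compared. Of the 4 without (Ccnb1, Bub1, Cdc25b and Aurka), 0 were above background on all 4 arrays and 1 could be compared. The CCAAT box, which often lies upstream of the CHR, was found on either strand in 9 of the 12 mitotic promoters (75.0%) and in 37.5% of all windows.

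Plk1, the polo-like kinase that starts mitosis and splits the spindle poles, stood at 8.55 and 8.81 in the thiamine livers and at 8.83 and 8.59 in the untreated livers. The groups overlapped fully, with 1 higher and 1 lower rat in each. The log2 difference was -0.028 (SE 0.19), and it became 0.0020 with median scaling. A second Plk1 probe was not well above background on any array. Aurkb and Birc5 (survivin), which act together in the chromosomal passenger complex, likewise overlapped: Aurkb read 8.43 and 8.21 in the thiamine livers and 8.54 and 8.28 in the untreated livers, for a difference of -0.090 (SE 0.19). Birc5 read 8.31 and 8.38 in the thiamine livers and 8.61 and 8.25 in the untreated livers, with a difference of -0.084 (SE 0.19).

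The cyclin and kinase of mitotic entry lay close to the limit of detection. Ccnb1 (cyclin B1) read 7.54 and 8.16 in the thiamine livers and 7.36 and 7.52 in the untreated livers. Both thiamine rats were above both untreated rats, thiamine rat 1 only just, and untreated rat 1 was not well above background. The log2 difference was 0.41 (SE 0.22; limma adjusted p = 0.81). Leaving out thiamine rat 2 gave 0.11, and leaving out thiamine rat 1 gave 0.72. Cdk1, its kinase partner, read 7.91 and 7.97 in the thiamine livers and 8.30 and 7.52 in the untreated livers, the untreated rats lying on either side, with a difference of 0.031 (SE 0.24). The untreated value of 8.30 came from a spot that the scanner software marked as contaminated and near background, the second of which it sets by the spot's own surroundings. With such spots set to missing, the Cdk1 difference was 0.42. Cdc20, which activates the anaphase-promoting complex, read 7.71 and 7.80 in the thiamine livers and 7.87 and 7.04 in the untreated livers. Its difference of 0.30 (SE 0.25) rested on untreated rat 2, without which it was -0.11.

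For the other mitotic genes no difference was fitted. Top2a, the topoisomerase that untangles chromosomes, was above background in thiamine rat 2 and untreated rat 1. Ccnb2 (cyclin B2) and the spindle pole kinase Aurka were above background in thiamine rat 1 alone, and the checkpoint kinase Bub1 in untreated rat 2 alone. Ccnb2 read 7.42 and 7.20 in the thiamine livers and 6.81 and 6.76 in the untreated livers, with both thiamine rats higher. The lowest normalised level of any probe above background was 7.08 and 7.08 on the thiamine arrays and 7.25 and 7.24 on the untreated arrays, so the untreated values of Ccnb2 are below what these arrays measure.

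Among the 16 genes of DNA replication and S phase entry, 9 could be compared, of which 7 were at a higher and 2 at a lower mean in the thiamine livers, with a median log2 difference of 0.15. Of those 9, 4 had been admitted by the thiamine arrays alone. E2F sites, the letters TTTCCCGC, TTTCGCGC, TTTGCCGC or TTTGGCGC on either strand, each match counted also where matches share bases, were present in 7 of 12 replication promoters (58.3%: Mcm2, Cdc25a, Mcm3, Tyms, Mcm7, Mcm6 and Mcm5), in 1 of 12 mitotic ones and in 2.14% of all windows. The promoter of Mcm7 (chr12:22163129-22163428, - strand) is shown because Mcm7 had the brightest probe of the replication genes and because it holds 2 such matches, in capitals, at positions -233 and -52 from the start, the first of them on the opposite strand.
Mcm7: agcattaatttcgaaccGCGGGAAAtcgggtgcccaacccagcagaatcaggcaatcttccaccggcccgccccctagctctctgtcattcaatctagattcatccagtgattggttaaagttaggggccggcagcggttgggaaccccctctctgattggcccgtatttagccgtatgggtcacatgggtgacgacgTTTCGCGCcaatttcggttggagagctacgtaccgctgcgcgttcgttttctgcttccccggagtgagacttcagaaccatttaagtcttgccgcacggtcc

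The helicase that opens DNA ahead of the replication fork is a ring of Mcm2 to Mcm7. Mcm7 read 9.69 and 9.76 in the thiamine livers and 9.85 and 9.38 in the untreated livers. Both thiamine rats lay between the untreated rats, and the log2 difference was 0.11 (SE 0.20). Mcm4 read 8.00 and 7.84 in the thiamine livers and 7.90 and 8.01 in the untreated livers, a difference of -0.037 (SE 0.18). Mcm6 read 7.52 and 7.53 in the thiamine livers and 7.76 and 6.59 in the untreated livers, where rat 2 was not well above background. Its difference of 0.35 (SE 0.31) turned to -0.24 when untreated rat 2 was left out and stood at 0.94 when untreated rat 1 was. Mcm2 read 7.76 and 7.66 in the thiamine livers and 7.63 and 7.58 in the untreated livers, both thiamine rats being a little higher, by 0.10 on average (SE 0.18). Mcm5 was above background in thiamine rat 1 alone, and Mcm3 had no named probe.

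Pcna, the sliding clamp that holds DNA polymerase on its template, read 9.57 and 9.52 in the thiamine livers and 9.43 and 9.23 in the untreated livers. Both thiamine rats were higher, and the log2 difference was 0.22 (SE 0.18; limma adjusted p = 0.89). E2f1, the factor that turns on many S phase genes, read 7.91 and 8.01 in the thiamine livers and 7.73 and 7.68 in the untreated livers, without overlap but with untreated rat 1 not well above background, for a difference of 0.26 (SE 0.18; limma adjusted p = 0.85). Neither difference passed this test, in which the SE is moderated with the spread of all kept probes. Cdc25a, the phosphatase that frees Cdk2 to act, read 9.56 and 9.72 in the thiamine livers and 9.70 and 9.60 in the untreated livers. Those values interleave, and the difference was -0.0061 (SE 0.18). Cdk2 itself differed by 0.16 (SE 0.27), with untreated rat 1 not well above background at 6.73 and untreated rat 2 the highest of all at 7.66.

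The genes that make deoxynucleotides were mostly at the limit of detection. Rrm1, the large subunit of ribonucleotide reductase, read 8.39 and 8.19 in the thiamine livers and 7.90 and 8.40 in the untreated livers, overlapping, with a log2 difference of 0.15 (SE 0.21). Its partner Rrm2 and Tk1 were above background in no rat. Tyms (thymidylate synthase) was above background in untreated rat 2 alone and Ccne1 (cyclin E1) in thiamine rat 1 alone.

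The G1 genes held the member with the smallest p. Rb1, the pocket protein that binds E2F factors and restrains entry into S phase, read 10.59 and 11.19 in the thiamine livers and 10.29 and 10.26 in the untreated livers. Both thiamine rats were above both untreated rats, and thiamine rat 2 stood apart from the other 3. The spot of thiamine rat 1 was marked as contaminated. The mean was 10.89 ± 0.43 in the thiamine livers and 10.27 ± 0.017 in the untreated livers (SD, n = 2 each). The log2 difference was 0.61 (SE 0.22; limma adjusted p = 0.57 over all probes), and 1.5% of all genes were higher by at least as much. The second Rb1 probe read 10.27 and 10.85 in the thiamine livers and 10.18 and 9.91 in the untreated livers, again with thiamine rat 2 highest and no overlap, a difference of 0.52 (SE 0.22). Leaving out thiamine rat 2, the difference at the first probe was 0.31, and leaving out thiamine rat 1 it was 0.92, as it was with contaminated spots set to missing, which removes that rat's value.

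The Rb1 promoter (chr15:54911808-54912107, - strand) is shown because Rb1 is both a partner of the E2F factors and, in these letters, a gene with a match to their site; the match, in capitals, begins at position 3 counted from the start. It was the only 1 of the 4 G1 genes with a promoter window that held such a match.
Rb1: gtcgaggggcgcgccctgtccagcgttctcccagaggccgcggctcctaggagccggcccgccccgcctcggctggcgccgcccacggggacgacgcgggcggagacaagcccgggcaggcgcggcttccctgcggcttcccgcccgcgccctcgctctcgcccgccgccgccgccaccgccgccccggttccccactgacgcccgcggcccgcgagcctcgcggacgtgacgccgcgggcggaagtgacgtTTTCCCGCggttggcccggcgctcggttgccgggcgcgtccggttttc

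Among the partners of Rb1 in G1, cyclin D1 and Cdk6 did not overlap between groups. Ccnd1 (cyclin D1) read 9.01 and 8.92 in the thiamine livers and 8.92 and 8.27 in the untreated livers. Untreated rat 2 was the low value, while untreated rat 1 lay at the level of the nearer thiamine rat. The log2 difference was 0.37 (SE 0.23; limma adjusted p = 0.83), and it was 0.050 without untreated rat 2. Cdk6, a kinase that D-type cyclins activate, read 7.56 and 7.59 in the thiamine livers and 7.84 and 7.81 in the untreated livers. Both groups were tight and apart, by -0.25 (SE 0.18; limma adjusted p = 0.85). Cdk4, the other such kinase, read 9.90 and 10.18 in the thiamine livers and 10.06 and 9.84 in the untreated livers, overlapping, with a difference of 0.090 (SE 0.19). Ccnd3 (cyclin D3) differed by 0.045 (SE 0.18) and Rbl2 (p130), the pocket protein of resting cells, by 0.034 (SE 0.18). Ccnd2 (cyclin D2) was above background in untreated rat 1 alone.

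The inhibitors of the kinases included the member with the lowest difference of all 30. Cdkn1a, which encodes the p53-induced inhibitor p21, read 12.09 and 11.34 in the thiamine livers and 12.02 and 12.44 in the untreated livers. Thiamine rat 2 was lowest and untreated rat 2 highest, and thiamine rat 1 lay between the untreated rats, so the groups overlapped. The mean was 11.71 ± 0.53 in the thiamine livers and 12.23 ± 0.29 in the untreated livers (SD, n = 2 each), and the log2 difference was -0.52 (SE 0.26; limma adjusted p = 0.78). Leaving out thiamine rat 2 gave -0.14, and leaving out thiamine rat 1 gave -0.90. The second Cdkn1a probe read 9.87 and 9.82 in the thiamine livers and 9.93 and 9.98 in the untreated livers, apart in the same direction but by -0.11 (SE 0.18). The probes of this gene thus shared a sign and not a size.

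Cdkn1c (p57), an imprinted inhibitor, differed by -0.22 (SE 0.22) and Cdkn2b (p15), an inhibitor of Cdk4 and Cdk6, by -0.20 (SE 0.19), or -0.033 without untreated rat 1. Cdkn2c (p18), which acts on the same kinases, read 7.99 and 8.38 in the thiamine livers and 7.95 and 8.02 in the untreated livers, overlapping, a log2 difference of 0.20 (SE 0.20). A second Cdkn2c probe differed by 0.24 (SE 0.20). The third probe read 7.56 and 7.55 in the thiamine livers and, not well above background, 6.83 and 7.26 in the untreated livers, so it was at least 1.23-fold higher in the thiamine livers (limma adjusted p = 0.63). That bound sets the mean of the thiamine arrays against, on each untreated array, the higher of the probe's own level and the lowest level of any probe above background. The third probe passed the filter through the thiamine arrays alone, and leaving out thiamine rat 2 took the difference at the first to 0.0030.

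**Figure D3:**
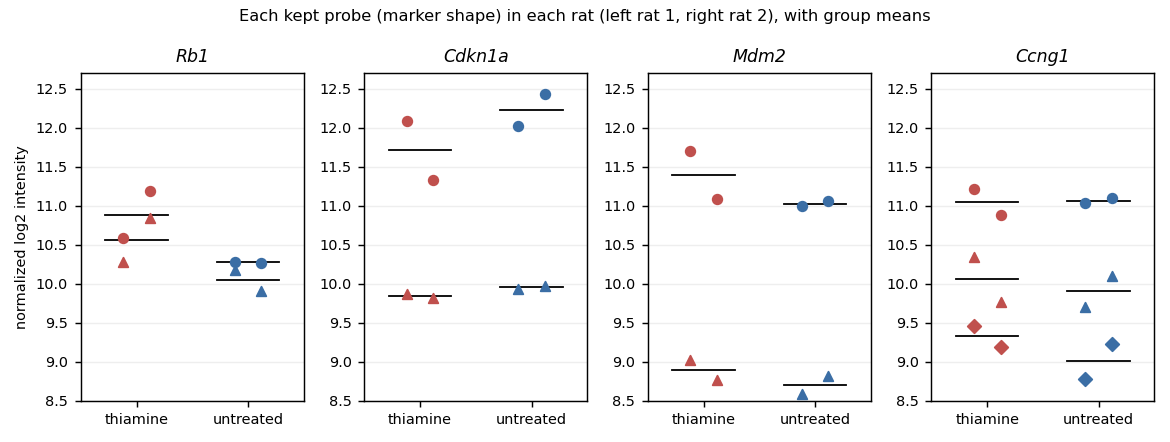
Normalised log2 intensity (vertical axis) of every compared probe of Rb1, Cdkn1a, Mdm2 and Ccng1 in each rat, thiamine in red on the left and untreated in blue on the right of each panel; marker shapes are probes, the left and right point of a pair are rat 1 and rat 2, and lines are group means. Both Rb1 probes lay higher in the thiamine rats, the Cdkn1a probes had means lower there by 0.52 and 0.11, and the 3 Ccng1 probes overlapped between the groups.

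All 5 p53 and stress genes were above background in every rat, and none passed the test between the groups: 4 of 5 were at a higher and 1 at a lower mean in the thiamine livers, with a median log2 difference of 0.066. Mdm2, the ubiquitin ligase that p53 induces and that degrades p53, read 11.70 and 11.08 in the thiamine livers and 10.99 and 11.06 in the untreated livers. Thiamine rat 1 was highest, and thiamine rat 2 only just exceeded the nearer untreated rat. The difference was 0.37 (SE 0.22; limma adjusted p = 0.84), and 0.058 without thiamine rat 1. The second Mdm2 probe read 9.03 and 8.76 in the thiamine livers and 8.59 and 8.82 in the untreated livers, with overlap and a difference of 0.19.

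Gadd45a, a p53- and stress-induced partner of the mitotic kinase and of Pcna, read 11.66 and 11.38 in the thiamine livers and 11.58 and 11.36 in the untreated livers. Each group had 1 high and 1 low rat, and the log2 difference was 0.046 (SE 0.19). Plk2, a polo-like kinase that p53 induces, read 10.72 and 11.04 in the thiamine livers and 10.78 and 10.56 in the untreated livers, a difference of 0.21 (SE 0.20) with thiamine rat 1 between the untreated rats, or 0.048 without thiamine rat 2. Ccng1 (cyclin G1), a p53 target, read 11.22 and 10.88 in the thiamine livers and 11.03 and 11.09 in the untreated livers. Its difference was -0.015 (SE 0.19) at this probe and 0.32 and 0.15 at the other 2, with overlap at all 3, so its probes did not share a sign, as the plot of probes by rat shows. Of the 7 members with several compared probes, 6 had probes of 1 sign and Ccng1 had both. Ccng2 (cyclin G2), which is high in arrested cells, differed by 0.066 (SE 0.19). No p53 or stress gene had an E2F match in its promoter window.

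Lists of further genes of the same processes, which were chosen with earlier results of these data known, gave no call either. Of 48 further mitotic genes, 40 had a named probe, 55.0% of those were above background on all 4 arrays, and 25 could be compared, 15 at a higher and 10 at a lower mean in the thiamine livers, with a median log2 difference of 0.059. Of 50 further replication genes, 38 had a named probe, 65.8% of those were above background throughout, and 31 could be compared, 15 higher and 16 lower, with a median of -0.027. Of 36 further p53 targets, 28 had a named probe, 85.7% of those were above background throughout, and 26 could be compared, 11 higher and 15 lower, with a median of -0.059. The 5 measured E2F, DP and pocket protein genes had a median of 0.035, and the 13 measured subunits of the cell cycle ubiquitin ligases a median of -0.0074. The share of all named genes above background throughout, 66.1%, was close to that of the further replication genes and lay above the 35.7% of the replication members. No difference in detection between lists was tested. In promoter windows of the further lists, the CHR stood in 30 of 40 mitotic genes (75.0%) and E2F letters in 16 of 41 replication genes (39.0%).

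**Figure D4:**
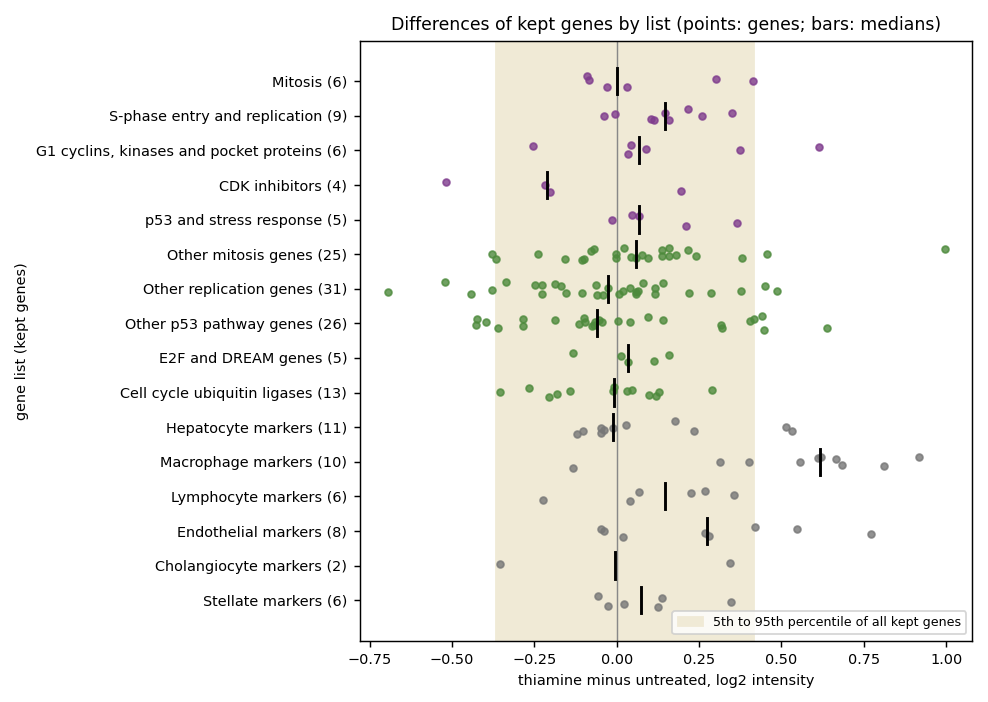
Log2 difference (thiamine minus untreated, horizontal axis) of each compared gene as a point, for the 5 roles (purple), 5 further lists of cell cycle and p53 genes (green) and markers of 6 liver cell types (grey), with a black bar at each median and a band from the 5th to the 95th percentile of all genes. The cell cycle and p53 lists centre near 0, between medians of -0.21 for the kinase inhibitors and 0.15 for the replication members, and the macrophage markers centre at 0.62.

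At an unadjusted limma p under 0.05 the further lists held 1 of 25 compared mitotic genes, 3 of 31 replication genes and 4 of 26 p53 targets, beside 6.89% of all genes. Wee1, the kinase that holds Cdk1 inactive before mitosis, read 9.47 and 9.44 in the thiamine livers and 8.84 and 8.07 in the untreated livers. Both thiamine rats were higher than both untreated rats, which lay apart from each other, and the log2 difference was 0.995 (SE 0.24; limma adjusted p = 0.27). Another Wee1 probe was at least 1.07-fold higher in the thiamine livers (limma adjusted p = 0.84). It was admitted by the thiamine arrays alone, with neither untreated rat well above background. The remaining Wee1 probe read 7.31 and 8.44 in the thiamine livers and 8.15 and 8.19 in the untreated livers. Its groups overlapped, with a lower mean in the thiamine livers. Rat 1 of each group was not well above background there, so that probe was not compared. Bax, the p53-induced protein that opens mitochondria in cell death, read 9.44 and 9.28 in the thiamine livers and 8.61 and 8.83 in the untreated livers, without overlap, a difference of 0.64 (SE 0.19; limma adjusted p = 0.39). A second Bax probe read 8.86 and 7.77 in the thiamine livers and 7.82 and 7.72 in the untreated livers. Its groups overlapped, with a difference of 0.55 (SE 0.29) that rested on thiamine rat 1, whose spot carried a quality flag. Bbc3, the p53-induced cell death gene also called Puma, lay the other way, at 8.90 and 8.77 in the thiamine livers and 9.25 and 9.27 in the untreated livers, a difference of -0.42 (SE 0.18; limma adjusted p = 0.69). Of the 4 further p53 targets at that unadjusted limma p, 3 were higher and 1, Bbc3, lower. Over all 26 compared, 11 were higher and 15 lower. Of the members, Mdm2 had a higher mean, by 0.058 without thiamine rat 1. Cdkn1a had a lower mean with overlapping groups, by -0.14 without thiamine rat 2. None of these genes passed adjustment.

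Dram1, a p53 target of autophagy, was higher by 0.40 (SE 0.18). Pola1, the catalytic subunit of DNA polymerase alpha, differed by -0.70 (SE 0.24) at a probe not well above background in thiamine rat 1 and admitted by the untreated arrays alone. Rfc3, a part of the clamp loader, differed by -0.44 (SE 0.18). Cdc45, which activates the helicase, was at least 1.16-fold higher in the thiamine livers (limma adjusted p = 0.71). Its probe was admitted by the thiamine arrays alone, with neither untreated rat well above background. Stmn1 (stathmin), which destabilises microtubules, differed by 0.38 (SE 0.18), and Cks1b, a small subunit of the kinase complexes, by -0.38 (SE 0.20) at 1 probe and -0.52 (SE 0.19) at another. Of the E2F and pocket protein genes, E2f4 differed by 0.16, Tfdp1 by -0.13 and E2f6 by 0.11. Of the ubiquitin ligase subunits, Anapc7 differed by -0.36 at a probe that the untreated arrays alone admitted, with thiamine rat 1 not well above background. Cdc26 differed by -0.27 at 1 probe and by -0.080, with overlap, at another. Cdc27 was at least 1.14-fold higher in the thiamine livers (limma adjusted p = 0.84). Its probe, too, was admitted by the thiamine arrays alone, with neither untreated rat well above background.

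Markers of the other liver cells were read beside these genes, because cells other than hepatocytes also divide and carry p53 targets. Of 10 measured macrophage markers out of 13, 9 were at a higher and 1 at a lower mean in the thiamine livers, with a median log2 difference of 0.62 and 6 at an unadjusted limma p under 0.05, all higher, beside 3.83% of all genes; none passed adjustment. Their summed linear intensity was 32674 and 23821 in the thiamine livers and 23951 and 16522 in the untreated livers, overlapping, with untreated rat 2 the lowest. Clec4f, the C-type lectin of Kupffer cells, read 13.42 and 13.01 in the thiamine livers and 13.02 and 12.17 in the untreated livers, and Cd14, a receptor for bacterial lipopolysaccharide, differed by -0.13.

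Of 8 measured endothelial markers out of 12, 6 had a higher and 2 a lower mean (median log2 difference 0.27), and their summed intensity was 7426 and 6760 in the thiamine livers and 5759 and 5501 in the untreated livers, without overlap. Lyve1, a sinusoidal hyaluronan receptor, differed by 0.77 and Kdr, a receptor for vascular endothelial growth factor, by 0.42. The sums of the 6 measured lymphocyte markers were 2361 and 2115 in the thiamine livers and 2210 and 1947 in the untreated livers. Those of the 6 stellate cell markers were 7015 and 6542 in the thiamine livers and 6959 and 5985 in the untreated livers, and those of the 2 bile duct markers 732 and 850 in the thiamine livers and 1159 and 685 in the untreated livers. Untreated rat 2 had the lowest sum in each of these 5 lists and in the hepatocyte list, which includes saturated spots. It had the highest sum of the 4 rats for the further p53 targets (19004 and 18429 in the thiamine livers, 18528 and 20385 in the untreated livers) and for the ubiquitin ligase subunits (25344 and 24745 in the thiamine livers, 22566 and 27663 in the untreated livers). No measured marker was at 0, an outcome that the offset of 50 and the filter on dim probes fix in advance. The part of these cells in the levels of the cell cycle and p53 genes was not tested.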

How the data were processed

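The data are 4 reports of 1-colour CodeLink arrays, each of 1 rat liver, and the deposited value table of the same arrays. Per the file headers, CodeLink Expression Analysis 5.0.0.31312 wrote the reports, which hold spot mean and local background as intensity on a linear scale, with a quality flag. The authors' steps to the value table, an alternative below, were not given in the sources used here.

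The spot means of the reports were corrected for local background with normexp (offset 50). The 1280 control features were left out, and log2 values were quantile normalised. A probe was kept if above background in both rats of 1 group or more, and masked spots (55 to 67 per array) were missing. Contaminated spots made up 1.49% to 7.49% of an array and were kept. Names came from the platform annotation (16740 probes) and RefSeq accessions (367 probes); 16564 probes have no name here. A gene is shown by its kept probe of highest mean level. limma 3.58.1 in R 4.3.3 (two-sided, Benjamini-Hochberg over kept probes, threshold 0.05) compared the groups with 2 residual degrees of freedom, 10.8 after moderation, and every SE is the moderated one. The fit was checked on simulated data with changes larger than the difference of any member. That check does not cover differences of the members' size. The number of arrays, 2 per group, limits the precision.

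The members and lists were chosen with earlier results of these data known. The rule for values per rat took members at an unadjusted p under 0.05, those at least 0.5 apart without overlap and the brightest of each role (Plk1, Mcm7, Rb1, Cdkn1a and Gadd45a); per-rat values of the others were added after they were seen. From each further list the 3 genes with the smallest unadjusted p were named, and from each marker list the 2 brightest could be. Promoters are RefSeq's, build GRCr8. Alternatives were background correction, offset, scaling, filter on dim probes, quality flags, the deposited table, the replicate number as a block, each array left out, and the mean of a gene's probes.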

Additional observations from a re-analysis of the deposited data

How the results depend on the processing

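No member passed the adjusted threshold under any of the 13 alternatives run. Slide could not be used as a block, since each array was its own slide, and no block for scan date was fitted. The count of probes past the threshold, 0 as reported, was 126 with the replicate number as a block (a replicate block, 75 higher and 51 lower in the thiamine livers) and between 1 and 65 with 1 array left out, in fits that take a single remaining rat to vary as rats of the other group do. Same-numbered rats did not deviate together over the array as a whole (r = -0.074 over 18650 probes). With 2 rats per group, that value cannot exclude a pairing that touches fewer probes. Whether same-numbered rats shared a cage was not stated. Members at an unadjusted p under 0.05, 1 as reported, were 2 with the block, 2 with only probes above background on all 4 arrays, and 1 to 5 with 1 array left out. Without a filter on dim probes, the probes at an unadjusted p under 0.05 were 828 higher and 931 lower, and with only those above background on all 4 arrays 500 and 503, against 711 and 549 as reported. The median difference over members was between 0.011 and 0.12 with 1 array left out.

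With all 4 arrays kept, 257 of 261 alternative values of single members had the sign reported. The exceptions, with median scaling, were Plk1 at 0.0020, Cdc25a at 0.026 and Ccng1 at 0.0047, and Ccng1 at 0.15 with the mean of its probes. With 1 array left out, 17 members turned sign at least once: the differences lay between -0.22 and 0.038 for Aurkb, -0.27 and 0.099 for Birc5, -0.037 and 0.13 for Ccnd3, -0.18 and 0.15 for Ccng1, -0.065 and 0.20 for Ccng2, -0.11 and 0.71 for Cdc20, -0.088 and 0.076 for Cdc25a, -0.36 and 0.42 for Cdk1, -0.31 and 0.62 for Cdk2, -0.047 and 0.23 for Cdk4, -0.53 and 0.092 for Cdkn1c, -0.093 and 0.18 for Gadd45a, -0.12 and 0.044 for Mcm4, -0.24 and 0.94 for Mcm6, -0.13 and 0.35 for Mcm7, -0.16 and 0.10 for Plk1, and -0.11 and 0.40 for Rrm1. The other 13 kept their sign but not their size: with 1 array left out, Cdkn2c lay between 0.0030 and 0.39, Plk2 between 0.048 and 0.37, Cdkn2b between -0.37 and -0.033, Pcna between 0.12 and 0.31, Mcm2 between 0.051 and 0.16, Rbl2 between 0.0029 and 0.065, Ccnd1 between 0.050 and 0.70, Mdm2 between 0.058 and 0.67, Rb1 between 0.31 and 0.92, Cdkn1a between -0.90 and -0.14, Ccnb1 between 0.11 and 0.72, E2f1 between 0.21 and 0.31, and Cdk6 between -0.27 and -0.24. With spots of poor quality set to missing, Cdk1 moved to 0.42, Rb1 to 0.92, Ccnd3 to 0.10 and Rbl2 to 0.088. The cause of these shifts was not tested beyond the array left out.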
